A study of Mus musculus with 160 samples.

Results

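The genes followed here were *Gzma*, *Gzmb*, *Prf1*, *Nkg7*, *Itgae*, *Cd160*, *Klrd1* and *Ccl5*, each of which is used by cytotoxic lymphocytes or by the lymphocytes that live within the intestinal epithelium. They were chosen by name, and they make up 8 of the 39179 genes counted in the RNA-seq data of 160 distal colons. Each colon came from a mouse of 1 of 4 lines in which *Nckap1l*, *Dock2*, *Gpsm3* or *Dok3* had been knocked out, or from a wild-type control of that line. The study knocked out these genes because its network of human inflammatory bowel disease had predicted them to be key drivers, and the comparison asked how each loss changed expression in a colitis model. In that model dextran sulfate sodium (DSS), a polymer that injures the colonic epithelium, is dissolved in the drinking water.

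The *Nckap1l* line held 16 knockout colons (4 from females, 12 from males) and 15 wild-type colons (8 and 7) on the C57BL6/J background, taken on day 12 after 5 days of DSS and 7 days of water, with no DSS percentage in the labels. The *Dock2* line comprised 18 knockout colons (8 from females, 10 from males) and 24 wild-type colons (12 and 12), also C57BL6/J, taken on day 10 after 5 days of 3% DSS and 5 days of water. The *Gpsm3* line comprised 20 knockout and 20 wild-type colons of C57BL6/J males with the same dose and days. The *Dok3* line comprised 26 knockout and 21 wild-type colons of males of strain 129, with 3.5% DSS by their labels and the same days. The study's methods also describe 3% DSS for this line in a first round of experiments. Whether any of these colons came from that round cannot be read from the labels. All mice were between 8 and 10 weeks old, and the controls were littermates. The labels do not say which mice drank DSS and which drank water, so treated and untreated colons stand together in every group. Line, strain, day and dose cannot be told apart between lines.

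Granzymes are proteases that cytotoxic T cells and natural killer cells store in granules and deliver into target cells through pores of perforin. Intraepithelial lymphocytes are T cells held between epithelial cells, in large part by the integrin CD103, which binds E-cadherin on those cells, and many of them carry granzymes without further stimulation. Of the 8 genes, *Gzma* and *Gzmb* encode granzymes A and B, *Prf1* encodes perforin and *Nkg7* a membrane protein of the granules. *Itgae* encodes the CD103 chain, *Cd160* a receptor of intraepithelial lymphocytes and natural killer cells, *Klrd1* the CD94 partner of the NKG2 receptors, and *Ccl5* a chemokine that activated T cells secrete. CD103 is also carried by a class of intestinal dendritic cells.

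By their annotation (GENCODE, GRCm38) the granule genes lie at chr13:113093825-113100981 (*Gzma*, minus strand), chr14:56258838-56262260 (*Gzmb*, minus), chr10:61297833-61304680 (*Prf1*, plus) and chr7:43437073-43438249 (*Nkg7*, plus). The receptors lie at chr11:73090583-73147446 (*Itgae*, plus), chr3:96798763-96829351 (*Cd160*, minus) and chr6:129591782-129598775 (*Klrd1*, plus), and the chemokine *Ccl5* at chr11:83525778-83530518 (minus). The 8 genes are thus spread over 7 chromosomes.

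The 250 bases before the RefSeq start sites of the 3 genes that act in target-cell killing are shown because their products act in the same granules. They are printed 5′ to 3′ in the direction of transcription (GRCm38.p6), and the capitals mark matches, on either strand, to 4 short motifs. These were AGGTGT for T-box factors, TGTGGT for Runx factors, TTCNNNGAA for STAT5 and, for NF-kB, GGG and CC with 5 bases of any kind between them. The window of *Gzma* lies at chr13:113100982-113101231 on the minus strand, that of *Gzmb* at chr14:56262335-56262584 on the minus strand and that of *Prf1* at chr10:61297586-61297835 on the plus strand.
Gzma: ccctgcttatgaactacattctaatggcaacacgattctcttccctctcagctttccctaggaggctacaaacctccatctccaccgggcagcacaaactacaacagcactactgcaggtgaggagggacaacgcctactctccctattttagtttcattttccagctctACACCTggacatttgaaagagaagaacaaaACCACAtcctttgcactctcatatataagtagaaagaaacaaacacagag
Gzmb: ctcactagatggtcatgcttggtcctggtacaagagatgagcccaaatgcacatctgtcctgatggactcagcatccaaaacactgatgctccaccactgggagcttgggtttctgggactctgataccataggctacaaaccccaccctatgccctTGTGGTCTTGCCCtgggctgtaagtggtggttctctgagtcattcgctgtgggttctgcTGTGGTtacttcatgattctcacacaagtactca
Prf1: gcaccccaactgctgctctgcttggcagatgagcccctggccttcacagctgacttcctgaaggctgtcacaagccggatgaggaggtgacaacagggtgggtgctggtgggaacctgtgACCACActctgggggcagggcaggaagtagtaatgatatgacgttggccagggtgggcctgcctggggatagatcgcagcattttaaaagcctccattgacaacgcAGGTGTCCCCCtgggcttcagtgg

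The Runx letters were found in each of these windows, at 50 bases before the start of *Gzma*, at 93 and 34 bases before that of *Gzmb* and at 130 bases before that of *Prf1*. The windows of *Nkg7* and *Cd160* held them as well, whereas 14.05% of 32851 mouse promoters of the same length did. The T-box letters stood 80 bases before the start of *Gzma*, 24 bases before that of *Prf1* and 14 bases before that of *Nkg7*, and were not in the windows of *Gzmb* and *Cd160*. They were in 11.8% of all promoters. The NF-kB letters, which occur in 45.8% of all promoters, overlapped the Runx match 93 bases before the start of *Gzmb* and the T-box match of *Prf1*. STAT5 letters were found in the windows of *Nkg7* and of the second *Cd160* start, against 7.02% of all promoters. Promoters of *Itgae*, *Klrd1* and *Ccl5* were not analysed here. These matches are letters in a window and describe no binding.

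Each colon's library held between 4344988 and 19993833 counts, and 8 of 160 libraries held fewer than 10000000. Levels are given as CPM, counts per 1000000 counts of the library, with library sizes adjusted by edgeR's TMM factors, and 3 counts corresponded to between 0.15 and 0.69 CPM. The colonic epithelial list, 16 genes that mark colon, had a mean log2 CPM between 5.54 and 9.59 in every library. In 32 libraries, 11 genes of skin were also high (a limit set after the data had been seen), with a mean log2 CPM between 5.57 and 9.63 against between -1.25 and 2.44 in the other 128. These libraries also held transcripts of striated muscle, with a median list mean of 7.90 against -0.14, and their neutrophil list mean was 1.06 against 0.02. They fell unevenly, namely 15 of the 31 *Nckap1l* libraries, 5 of the 42 *Dock2*, 3 of the 40 *Gpsm3* and 9 of the 47 *Dok3* libraries. In 5 *Dok3* libraries the sex-linked genes went against the labelled sex, and no member passed the knockout comparison of that line without them either. The knocked-out gene was lower in the knockout colons by 1.09 on the log2 scale in the *Nckap1l* line (SE 0.41, adjusted p = 1.00 in edgeR's quasi-likelihood test with Benjamini-Hochberg adjustment), by 0.62 in the *Dock2* line (SE 0.17, adjusted p = 0.21), by 2.06 in the *Gpsm3* line (SE 0.28, adjusted p = 1.00e-04) and by 0.48 in the *Dok3* line (SE 0.39, adjusted p = 1.00).

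All 8 genes were low, and they differed in how steady they were. *Itgae* was the most abundant, with a median of 9.19 CPM over the 160 colons and a range from 3.79 to 17 CPM. It was counted in every library, at a median of 143 counts. *Cd160* had a median of 2.41 CPM and ranged from 1.18 to 5.14 CPM, at a median of 38 counts. These receptors thus spanned narrow ranges, and the lowest colon still lay above 1 CPM.

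*Klrd1* had a median of 1.11 CPM (range 0.06 to 4.95) and *Ccl5* one of 1.09 CPM (0.17 to 27.7). *Gzmb* had a median of 0.76 CPM and ranged from 0 to 16.9 CPM, *Nkg7* one of 0.56 CPM (0.07 to 4.70), *Prf1* one of 0.34 CPM (0 to 2.23) and *Gzma* one of 0.25 CPM (0 to 7.23). *Gzma* was not counted at all in 9 colons, and *Gzmb* and *Prf1* in 3 each, where 3 counts are the smallest amount that the depth allows to be told from none. At a median of 4 counts for *Gzma*, 5 for *Prf1* and 8 for *Nkg7*, the level of these genes in a single colon is imprecise. In *Cd160*, 68 exonic bases overlap exons of *Pdzk1* on the other strand, and whether the counting used strand is not given in the sources used here, so reads there cannot be assigned.

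Scaled to the length of their exons, the order changed little. The median CPM per kilobase was 2.01 for *Itgae*, 1.13 for *Ccl5*, 0.91 for *Cd160* and 0.86 for *Klrd1*, followed by 0.62 for *Nkg7*, 0.53 for *Gzmb*, 0.25 for *Gzma* and 0.13 for *Prf1*. Granule genes were therefore the lowest of the set per length, with perforin last.

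The spread between colons of the same line and genotype separated the genes further. On the log2 scale (prior count 2) the within-group SD was 1.42 for *Gzmb*, 1.28 for *Gzma* and 1.07 for *Ccl5*, higher than that of 96.0%, 95% and 92.7% of 19785 genes. Against genes of similar average level alone, these shares were 92.3%, 83.6% and 89.9%. The SD was 0.85 for *Nkg7*, 0.76 for *Klrd1* and 0.75 for *Prf1*, higher than that of 81.3%, 78.6% and 63.7% of genes of similar level. *Cd160* (0.36) and *Itgae* (0.34) varied less than the median gene, whose SD was 0.38. Among genes of similar level, 23.7% had a lower SD than *Cd160* and 49.8% a lower one than *Itgae*, which thus lay near the middle. Line accounted for between 3.67% and 13.9% of the variance of a gene, and line with genotype for between 6.75% and 15.9%, so most of it lay between colons of the same group.

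The order of the 8 groups by median level was not the same for each gene. *Gzmb* had its lowest median in *Dok3* knockouts (0.57 CPM) and its highest in *Nckap1l* knockouts (1.5 CPM). *Gzma* ranged from 0.17 CPM in *Dok3* knockouts to 0.52 CPM in *Gpsm3* knockouts, *Prf1* from 0.22 CPM in *Dock2* knockouts to 0.54 CPM in *Nckap1l* knockouts, and *Nkg7* from 0.40 CPM in *Dok3* knockouts to 1.04 CPM in *Nckap1l* knockouts. *Ccl5* ranged from 0.86 CPM in *Dok3* wild types to 3.21 CPM in *Nckap1l* knockouts.

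*Itgae*, *Cd160* and *Klrd1* had their lowest median in *Nckap1l* knockouts, at 8.05, 2.07 and 0.64 CPM. Their highest medians were 11.0 CPM in *Dok3* wild types for *Itgae*, and 2.88 CPM and 1.61 CPM in *Gpsm3* knockouts for *Cd160* and *Klrd1*. The groups were also ordered by their mean log2 CPM. Neighbours in that order differed by less than the smallest group SD of the gene in 7 of 7 steps for 7 genes and in 6 of 7 steps for *Ccl5*. Steps between this many ordered groups tend to be small, and the SD is that of single colons. The count therefore does not show that the groups were alike. The groups of each gene overlapped throughout, as the plot of levels by group shows.

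**Figure D1:**
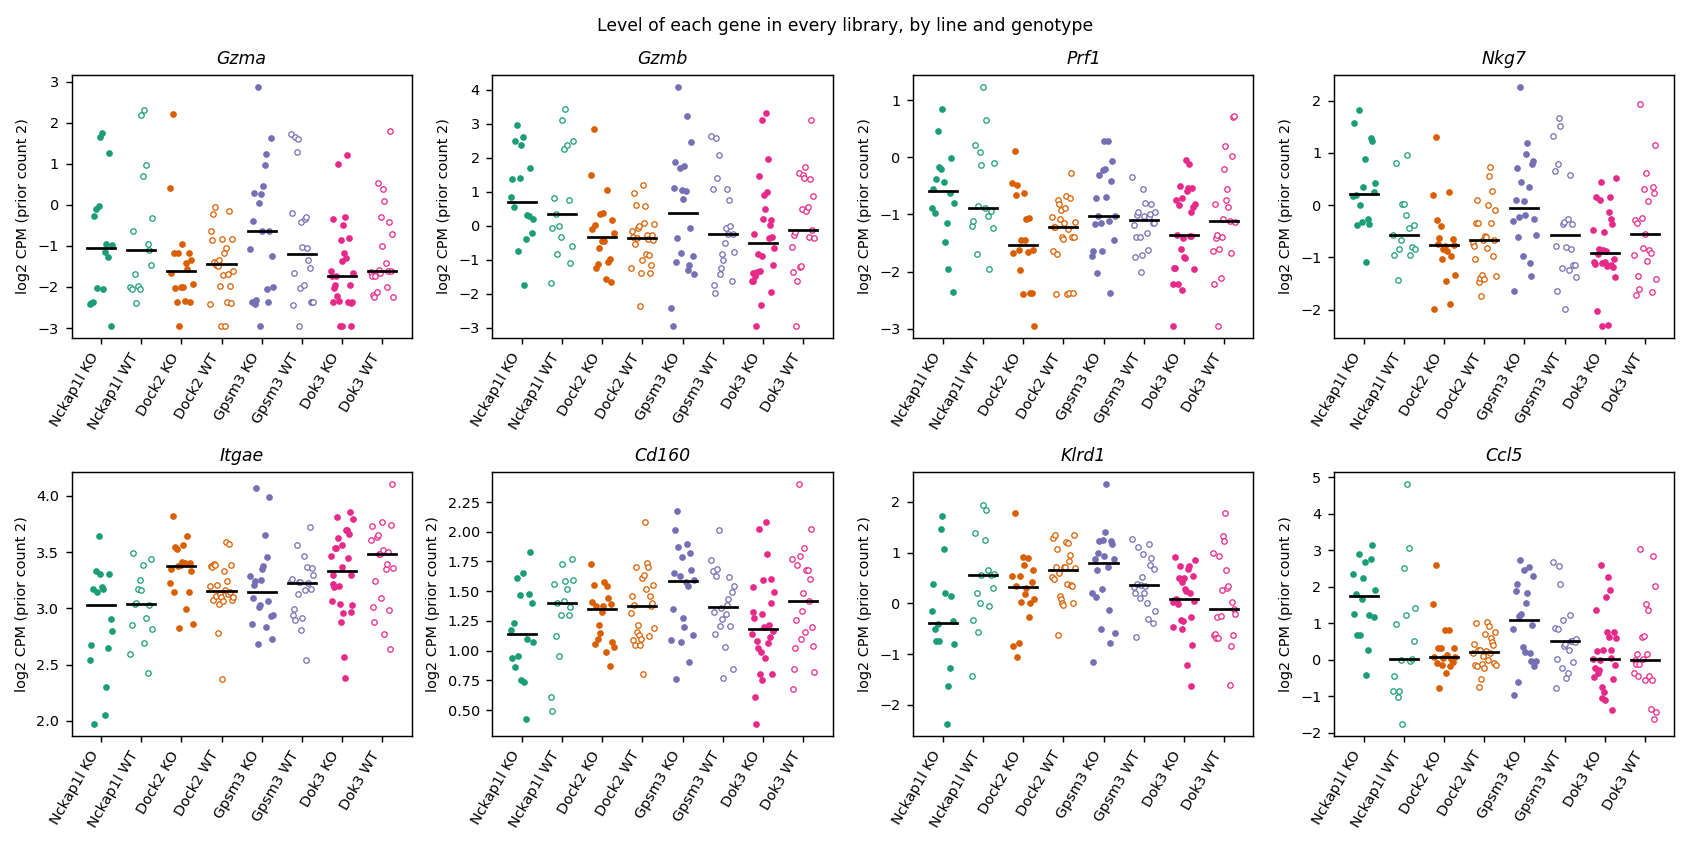
Level of each of the 8 genes in every library, as log2 CPM with a prior count of 2, by line and genotype (filled points, knockout; open points, wild type; bars, medians). The 8 groups overlap in every panel, and *Gzmb* and *Gzma* spread over a wider log2 range than *Itgae* and *Cd160*.

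Knockout and wild-type colons of a line were compared first, over treated and untreated mice together. None of the 8 genes passed an adjusted p-value of 0.05 in any line by edgeR's quasi-likelihood test with Benjamini-Hochberg adjustment. In the *Nckap1l* line 0 of 6 genes tested after the filter on low counts passed, against 0% of 17947 genes. In the *Dock2* line it was 0 of 5, against 0.034% of 17648 genes. In the *Gpsm3* line it was 0 of 6, against 0.00569% of 17560 genes, and in the *Dok3* line 0 of 5, against 0% of 17612 genes. So few genes passed anywhere that a count of 0 among these genes does not set them apart. Before adjustment 1 of the 22 tests had p under 0.05. DESeq2 called none of them either. Of the 17 marker lists tested in the same fits, 1 gene passed, *Cr2*, a complement receptor of B cells and follicular dendritic cells, lower by 1.53 in *Dock2* knockouts on the log2 scale. Over 5 members in the *Dock2* line the median change was 0.15 (all genes -0.0028), over 6 in the *Gpsm3* line 0.32 (0.0032), over 6 in the *Nckap1l* line -0.07 (0.0083) and over 5 in the *Dok3* line -0.17 (-0.000104). The *Nckap1l* median depended on the setting, and was -0.96 over 7 members without the libraries with skin markers, 0.14 with the run of sample numbers as a covariate and 0.17 with 2 surrogate variables.

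Among the granule genes, *Nkg7* in the *Nckap1l* line was the one with an unadjusted p under 0.05. Its levels in knockout colons were 0.34 CPM at the lowest, 1.04 at the median and 3.42 at the highest, and in wild-type colons 0.24, 0.55 and 1.82. The knockout median was the higher, and the ranges overlapped. The log2 difference was 0.96 (SE 0.32, p = 0.0056, adjusted p = 0.89 in edgeR's quasi-likelihood test). It was 1.33, 0.02 and 1.40 within the 3 runs of sample numbers of this line taken alone, and 0.56 without the 15 libraries with skin markers.

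*Gzmb* in the *Gpsm3* line ranged from 0 to 16.9 CPM in knockout colons (median 1.21) and from 0.13 to 6.02 CPM in wild-type colons (median 0.71). The groups overlapped, and knockout replicate 7 alone lay far above the highest wild-type colon. The log2 difference was 0.80 (SE 0.55, adjusted p = 0.94 in edgeR's quasi-likelihood test). With the mean of the neutrophil list as a covariate it was 0.07. That list had a median of 0.30 in these knockout colons and -0.49 in the wild-type ones.

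*Gzma* and *Prf1* passed the filter on low counts in no line, and *Nkg7* in the *Nckap1l* and *Gpsm3* lines alone. Tested without that filter, *Gzma* gave log2 differences of -0.66 (SE 0.69), 0.50 (SE 0.45), 0.40 (SE 0.58) and -0.55 (SE 0.46) in the *Nckap1l*, *Dock2*, *Gpsm3* and *Dok3* lines. *Prf1* was 0.50 higher in *Gpsm3* knockouts (SE 0.25, adjusted p = 0.81 in edgeR's quasi-likelihood test), where its levels ran from 0.06 to 1.09 CPM (median 0.36) against 0.12 to 0.66 CPM (median 0.34). Its medians in that line were thus nearly equal, and the difference lay in the higher colons.

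Of the receptors, *Itgae* was estimated most closely. In the *Dock2* line its levels were 6.97 CPM at the lowest, 10.3 at the median and 14 at the highest in knockout colons, and 5.06, 8.78 and 11.9 in wild-type colons. The log2 difference of 0.15 (SE 0.08, adjusted p = 0.99 in edgeR's quasi-likelihood test) was 1 of 2 positive ones for this gene, between -0.07 in the *Dok3* line and 0.15, each with an SE between 0.08 and 0.15. 

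*Klrd1* in the *Nckap1l* line ran from 0.06 to 3.16 CPM in knockout colons (median 0.64) and from 0.24 to 3.69 CPM in wild-type colons (median 1.34). The log2 difference was -0.77 (SE 0.42, adjusted p = 1.00 in edgeR's quasi-likelihood test). It was -0.75, -0.19 and -1.24 within the 3 runs of sample numbers. *Cd160* differed by between -0.22 (SE 0.13, *Dok3* line) and 0.14 (SE 0.12, *Gpsm3* line).

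*Ccl5* gave different directions by different measures. In *Nckap1l* knockout colons its levels were 0.63 CPM at the lowest, 3.21 at the median and 8.64 at the highest, and in wild-type colons 0.17, 0.89 and 27.7. The knockout median was higher, whereas the means were 3.72 ± 2.42 (SD, n = 16) and 3.60 ± 7.03 (SD, n = 15), and the fitted log2 difference was -0.03 (SE 0.55). By limma-voom, which works on log values, the difference was 0.89, and within the 3 runs of sample numbers it was 1.67, -1.67 and 1.37. None of these passed adjustment.

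The knockout effect did not differ between lines for any of the 8 genes (0 of 8 passed an F test of the line-by-genotype terms, against 0.69% of 19849 genes). Before adjustment 1 of the 8 had p under 0.05, against 5.68% of all genes, and without the libraries with skin markers 4 of 8 did, against 13.8%, none of which passed adjustment. The smallest adjusted p was that of *Nkg7*, 0.42 in edgeR's quasi-likelihood test, for which the *Nckap1l* line gave 0.96 and the *Dok3* line -0.62 without the filter. Nor did any differ between the sexes of the *Nckap1l* line (0 of 6, against 0% of genes) or of the *Dock2* line (0 of 5, 1 before adjustment, against 0.198%), by edgeR's quasi-likelihood test. A p that misses the threshold does not show that the effects were equal.

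**Figure D2:**
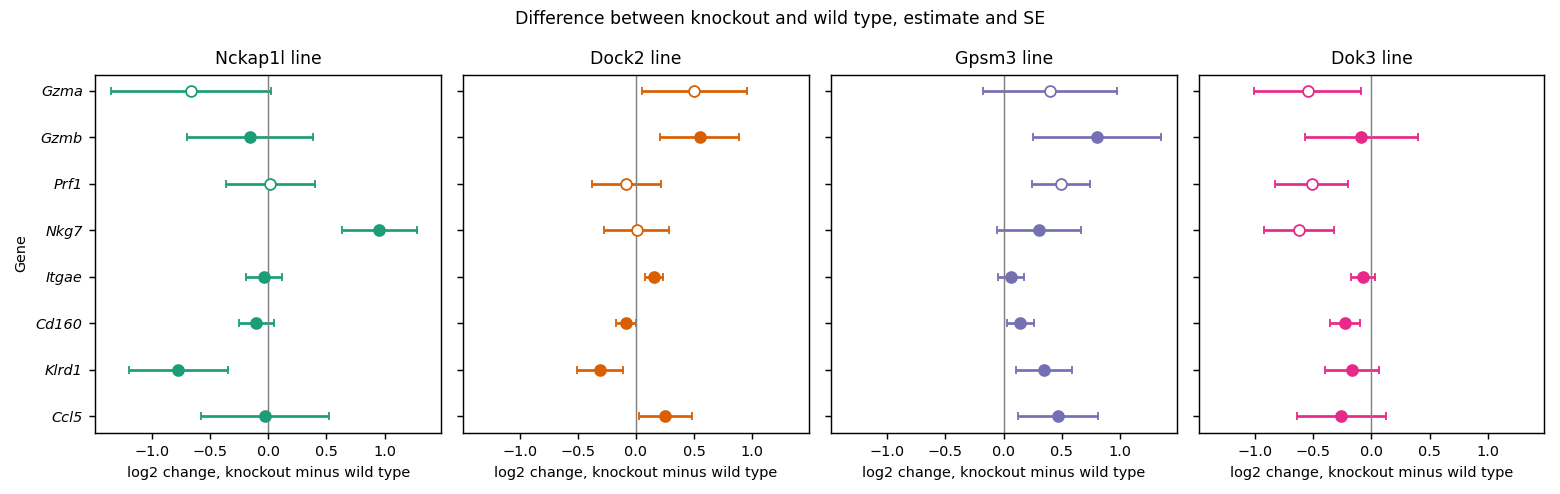
Difference between knockout and wild-type colons of each line on the log2 scale (points, estimates of edgeR; bars, SE; filled points, genes that passed the filter on low counts; open points, genes tested without it). *Nkg7* in the *Nckap1l* line has the largest estimate, 0.96, and the bars of *Itgae* and *Cd160* are the shortest.

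Inflammation genes spread widely among the colons of each group. The mean log2 CPM of 13 neutrophil and acute inflammation genes, such as *S100a8* and *S100a9*, ran from -1.69 to 8.84 over the 160 colons. Its range was wide within each group, from -0.98 to 5.90 in *Nckap1l* knockouts and from -1.69 to 8.84 in *Dok3* knockouts. Each member was therefore regressed on this list mean within the lines, a comparison added after the data had been seen. The slope is the change in log2 expression for each step of 1 in the list mean, and both come from the same library. More transcript in bulk tissue can mean more cells of a type or more RNA in each, which cannot be told apart.

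*Gzmb* rose most steeply, by 0.51 (SE 0.03) for each step over all lines, followed by *Gzma* (0.47, SE 0.04) and *Ccl5* (0.29, SE 0.03). *Prf1* (0.19, SE 0.03), *Klrd1* (0.17, SE 0.03) and *Nkg7* (0.14, SE 0.03) rose less, and *Cd160* little (0.05, SE 0.01). *Itgae* was the 1 member that fell, with a slope of -0.04 (SE 0.01). All 8 passed an adjusted p of 0.05 in edgeR's quasi-likelihood test, but so did 76.5% of 19849 genes, so the passing itself says little about them. The median slope of the 8 genes was 0.18, against 0.0035 over all genes tested. Without the 32 libraries with skin markers the slopes were 0.51 for *Gzmb*, 0.49 for *Gzma*, 0.30 for *Ccl5* and -0.04 for *Itgae*.

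For the 6 genes that could be tested within at least 1 line, the slopes were compared line by line. That of *Gzmb* was 0.55 (SE 0.06) in the *Nckap1l* line, 0.45 (SE 0.06) in the *Dock2* line, 0.51 (SE 0.09) in the *Gpsm3* line and 0.49 (SE 0.04) in the *Dok3* line. That of *Ccl5* was 0.41, 0.23, 0.26 and 0.25. That of *Itgae* was 0.01, -0.05, -0.05 and -0.06, and passed in the *Dock2* and *Dok3* lines. Without the 1 colon highest in the list it was -0.03 in the *Dock2* line (adjusted p = 0.20) and -0.05 in the *Dok3* line (adjusted p = 0.029), by edgeR's quasi-likelihood test. Without the libraries with skin markers it was -0.06 in the *Dock2* line (adjusted p = 0.029) and -0.04 in the *Dok3* line (adjusted p = 0.11), so each of these calls was lost in 1 of these refits. Of the members tested, 4 of 6 passed for *Nckap1l* (48.5% of genes), 4 of 5 for *Dock2* (56.1%), 4 of 6 for *Gpsm3* (54.6%) and 4 of 5 for *Dok3* (63.5%). The slope differed between lines for 0 of 8 members by edgeR's quasi-likelihood test (0 before adjustment), against 10.2% of genes.

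The plot against the neutrophil list gives the colons behind these slopes. *Gpsm3* knockout replicate 7 held 16.9 CPM of *Gzmb*, 7.23 CPM of *Gzma* and 4.70 CPM of *Nkg7*, each the highest of all 160 colons, at a list mean of 4.55. *Nckap1l* wild-type replicate 10 had a list mean of 6.95, with 10.6 CPM of *Gzmb*, 4.85 CPM of *Gzma* and 27.7 CPM of *Ccl5*. In neither colon was *Itgae* high, at 6.31 and 6.34 CPM.

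**Figure D3:**
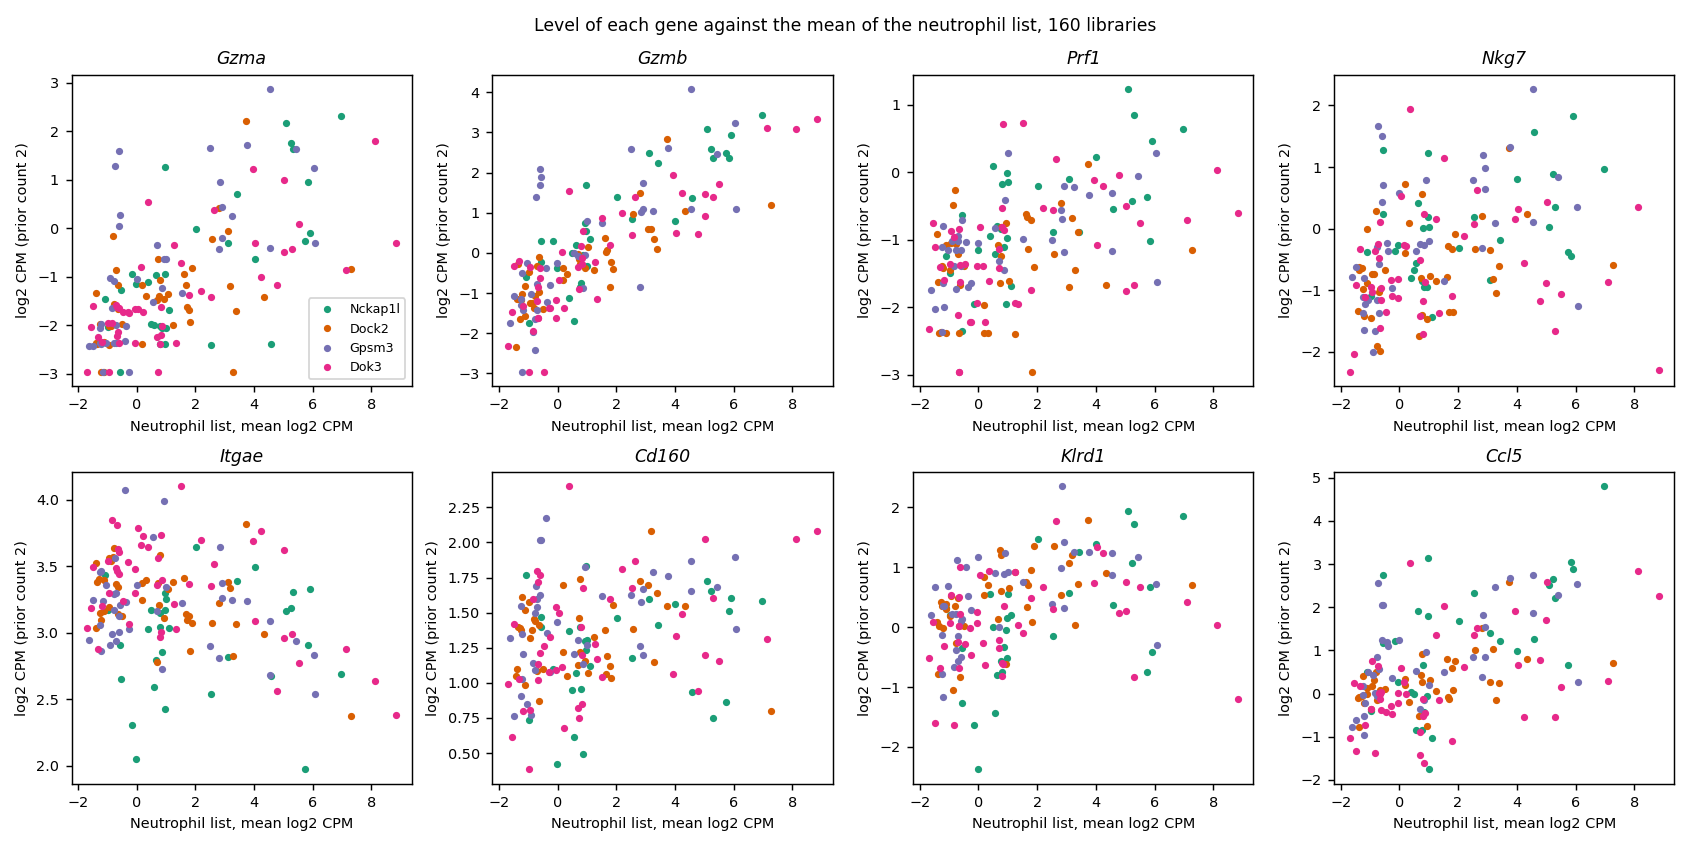
Level of each gene (log2 CPM, prior count 2) against the mean log2 CPM of 13 neutrophil and acute inflammation genes in 160 libraries, coloured by line. *Gzmb* climbs over the whole range of the list (slope 0.51), while *Itgae* drifts down (-0.04).

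T-cell genes rose as well. All 17 genes of a T-cell receptor and CD8 list rose with the neutrophil list (median slope 0.20), as did 12 of 13 natural killer receptor genes tested (median 0.11), with *Tyrobp*, an adaptor of these receptors that myeloid cells also use, at 0.38. With the mean of the T-cell receptor list as a second covariate, *Gzmb* kept a slope of 0.34 (SE 0.07, adjusted p = 0.0011) in the *Nckap1l* line, 0.31 (SE 0.06, adjusted p = 8.82e-06) in the *Dock2* line and 0.41 (SE 0.04, adjusted p = 5.92e-12) in the *Dok3* line, by edgeR's quasi-likelihood test. In the *Gpsm3* line its slope was then 0.11 (SE 0.09, adjusted p = 0.32). *Itgae* fell in all 4 lines in that fit, by slopes of -0.12, -0.12, -0.11 and -0.11, with adjusted p-values of 0.038, 1.36e-06, 0.0034 and 3.65e-06. *Klrd1* and *Cd160* passed in no line once the T-cell list was included, and *Ccl5* passed in the *Dok3* line (0.12, adjusted p = 0.022) but no longer in the *Nckap1l* (0.08), *Dock2* (0.05) and *Gpsm3* (-0.01) lines. In these fits 28.2%, 51.9%, 36.8% and 62.2% of all genes passed for *Nckap1l*, *Dock2*, *Gpsm3* and *Dok3*. *Nkg7* had a slope of -0.15 in the *Gpsm3* line (adjusted p = 0.018).

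Other genes of the same pathways were read from lists written for this purpose. Over all lines 76.5% of all genes passed for this slope, in either direction. The counts given for any of the marker lists are to be read against that share. Of 13 other granule genes tested, 8 rose with the neutrophil list and 2 fell (median slope 0.12). The smallest p-values were those of *Srgn* (slope 0.51), whose proteoglycan packs granule proteins in many leukocytes, *Stx11* (0.45), a fusion protein of granule release, and *Ctsc* (0.19), the protease that activates granzymes. Of 17 chemokines and receptors around *Ccl5*, 14 rose and 3 fell, with *Ccl4* at 0.91, *Ccl3* at 0.85 and their shared receptor *Ccr1* at 0.43. These are also products of myeloid cells. Of 15 transcription factors of cytotoxic lymphocytes, 11 rose and 2 fell, and *Nfil3* (0.48), *Prdm1* (0.30) and *Runx3* (0.25) had the smallest p-values. Ligands of these receptors were mixed, with 7 of 16 up and 3 down, among the former *H60b* (0.30), a ligand of NKG2D. Of 8 gamma delta T-cell genes 5 rose and 3 fell, among the latter *Cxadr* (-0.12), an epithelial ligand that binds the *Jaml* product on these cells. Of the lists of other cells, 9 of 12 dendritic cell genes, 8 of 10 B-cell follicle genes and 10 of 11 mast cell genes rose, and 6 of 8 smooth muscle genes fell.

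Genes of the colonic epithelium, as a list, went in the opposite direction. Of 16 colonic epithelial genes, 11 fell with the neutrophil list and 0 rose, among them *Aqp8* (-0.44), a water channel, and *Slc26a3* (-0.34), the chloride exchanger of surface cells. Of 15 genes that maintain intraepithelial lymphocytes, 8 rose and 6 fell. Among the 6 that fell was *Il15*, the cytokine that sustains these cells, by 0.21 for each step. *Cdh1*, which encodes the E-cadherin that CD103 binds, fell by 0.08. It belongs to the list of ligands above, in which more genes rose than fell. Of 15 integrin and adhesion genes of these lymphocytes 14 rose, with *Itgb2* at 0.37. Skin genes rose with the list as well (11 of 11, median slope 1.00), as did 10 of 10 striated muscle genes (0.71). The slopes of the members without the libraries that carried them are given above.

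The 8 genes were next compared with each other across the colons of a line, after the mean log2 CPM of its genotype was subtracted. Over 28 pairs in 4 lines, 71 correlations passed a permutation test after Benjamini-Hochberg adjustment, and 105 were positive. The share of other gene pairs that would pass was not tested, and 76.5% of all genes had a slope on the neutrophil list. These counts therefore do not set the members apart. The median Pearson r was 0.46 and the median Spearman rho 0.43. With the 2 colons farthest from the median left out the median r was 0.40, within runs of sample numbers 0.49, without the libraries with skin markers 0.51, and with the neutrophil list regressed out 0.37. It was higher in the *Gpsm3* (0.56) and *Nckap1l* (0.50) lines than in the *Dock2* and *Dok3* lines (0.35 in each).

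By the median r of the 4 lines, *Gzma* and *Gzmb* were the pair most alike (0.76), with r between 0.64 and 0.88 in the 4 lines and rho between 0.51 and 0.86, passing the adjusted permutation test in 4 of 4. *Gzma* and *Ccl5* followed (median 0.74), with r between 0.73 and 0.80 and rho between 0.59 and 0.77. Without the 2 most distant colons the ranges were 0.41 to 0.84 and 0.49 to 0.75. *Gzmb* with *Ccl5* (0.60 to 0.80) and *Nkg7* with *Ccl5* (0.53 to 0.78) also passed in 4 of 4 lines. The order varied by line, since in the *Dock2* and *Dok3* lines *Gzma* was closer to *Ccl5* (0.73 and 0.75) than to *Gzmb* (0.64 and 0.72). With the neutrophil list regressed out, r in the *Dok3* line was 0.29 between *Gzma* and *Gzmb* and 0.63 between *Gzma* and *Ccl5*. *Gzmb* and *Prf1* passed in 3 of 4 lines, with r of 0.59, 0.27, 0.63 and 0.55 in the *Nckap1l*, *Dock2*, *Gpsm3* and *Dok3* lines, and r was 0.09, 0.13, 0.40 and 0.38 with the neutrophil list regressed out.

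*Itgae* had lower correlations with this group. Its r with *Gzmb* lay between -0.32 and 0.07 and that with *Ccl5* between -0.13 and 0.17, and neither it nor its r with *Gzma* passed in more than 1 line. With the neutrophil list regressed out these were positive in all 4 lines, at 0.08, 0.46, 0.18 and 0.23 with *Gzmb*, 0.13, 0.56, 0.36 and 0.17 with *Ccl5* and 0.20, 0.60, 0.05 and 0.38 with *Gzma* in the order *Nckap1l*, *Dock2*, *Gpsm3* and *Dok3*. Its highest correlations were with *Cd160* (median r 0.31, passing in 2 of 4 lines) and *Klrd1* (0.28, 2 of 4). *Prf1*, at few counts, had r between 0.07 and 0.56 with *Klrd1* and between 0.36 and 0.60 with *Gzma*.

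Against 17 marker lists, 336 of 544 correlations of a member with a list mean passed the adjusted permutation test. How many would pass for other genes was not tested, so this count does not set the members apart either. *Gzmb* followed the neutrophil list with r between 0.71 and 0.87, the other granule genes with r between 0.84 and 0.91 and the T-cell receptor list with r between 0.57 and 0.85. *Ccl5* and *Nkg7* followed the T-cell receptor list with r of 0.72 to 0.82 and 0.66 to 0.86, compared with 0.52 to 0.63 and 0.06 to 0.50 with the neutrophil list. *Klrd1* was closest to natural killer receptors (0.62 to 0.86) and next to T-cell (0.54 to 0.75) and dendritic cell genes (0.55 to 0.82).

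*Itgae* had a different set of correlations. It was negative with the neutrophil list in 3 of 4 lines (r of -0.50 to 0.03, rho of -0.33 to 0.16), and with the 2 most distant colons left out r was -0.31 to 0.03, so this relation rested in part on those colons. It was positive with the genes that maintain intraepithelial lymphocytes (0.30 to 0.61), with gamma delta T-cell genes (0.22 to 0.53) and with dendritic cell genes (0.10 to 0.62). *Itgae* was also positive in every line with natural killer receptors (0.18 to 0.43) and with the ligands of these receptors (0.25 to 0.40). The same held for the T-cell receptor list (0.08 to 0.42) and for B-cell follicle genes (0.07 to 0.37). *Gzmb* and *Prf1* were negative with the epithelial list, at r of -0.63 to -0.35 and -0.63 to -0.15. With the skin list the correlations of the members lay between -0.42 and 0.30.

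**Figure D4:**
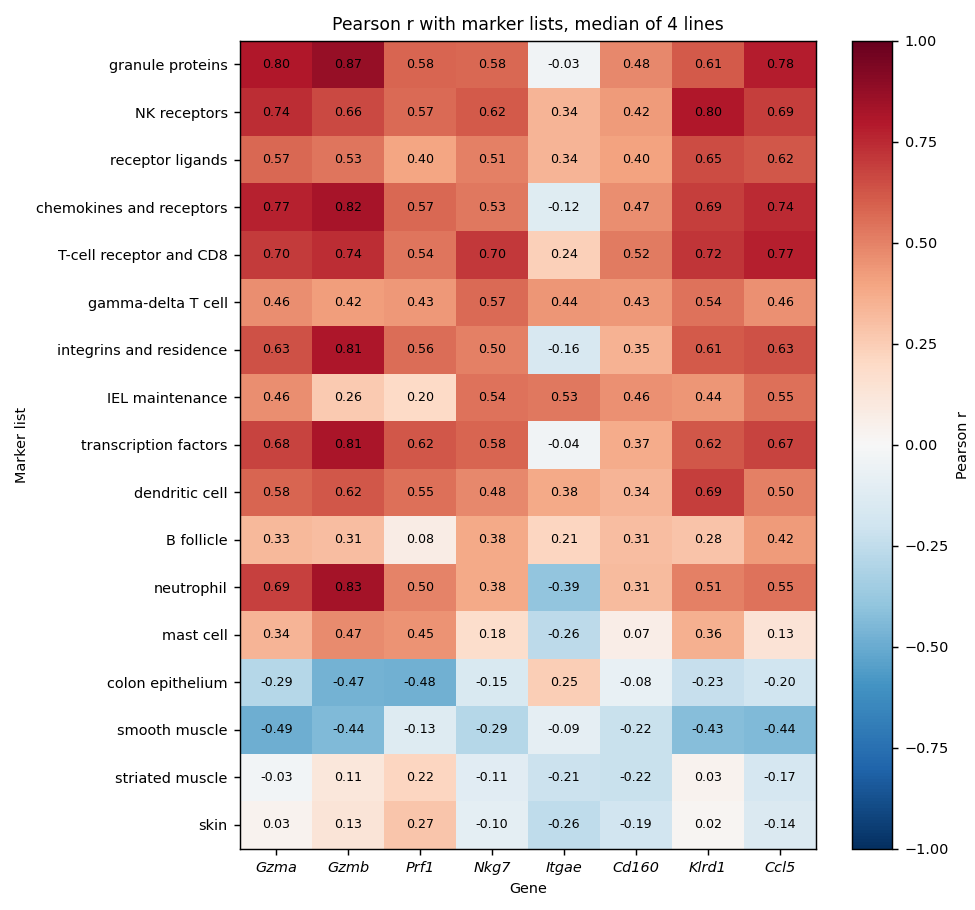
Pearson r of each gene with the mean log2 CPM of 17 marker lists, as the median of 4 lines (number in each cell; red, positive; blue, negative). *Gzmb* reads 0.83 with the neutrophil list and 0.87 with the other granule genes, whereas *Itgae* reads -0.39 and -0.03.

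The genes whose level followed a member most closely were sought among 14387 genes over the 160 colons, with the means of the 8 groups removed. For *Gzmb* they were *Nos2*, the inducible nitric oxide synthase (r = 0.86), *Fcgr4*, an IgG receptor of myeloid cells (0.85), and *Tnfrsf1b*, a TNF receptor (0.84). For *Gzma* they were *H2-D1* (0.78) and *B2m* (0.78), which form class I molecules, and *Ido1* (0.77), an interferon-induced enzyme of tryptophan breakdown, with *Gzmb* among them at 0.78. For *Prf1* they were *Nlrc5* (0.63), the activator of class I genes, *Rasgrp1* (0.59) and *Icam1* (0.59).

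For *Ccl5* they were *Ms4a4b* (0.78), *B2m* (0.76) and *Il2rb* (0.76), the last a receptor chain for interleukins 2 and 15. *Nkg7* and *Cd160* shared *Ms4a4b* (0.70 and 0.55), a gene of T cells. *Nkg7* was also close to *H2-Q7* (0.65), and *Cd160* to *Gbp8* (0.55) and to *Ccl5* (0.53).

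Among the genes searched, the closest of *Klrd1* and *Itgae* included genes of dendritic cells. By lists, *Klrd1* was nearer to natural killer receptors (median r 0.80) than to dendritic cell genes (0.69). The natural killer receptor list had a median list mean of -0.95, below the cut of this search. *Klrd1* followed *Flt3* (0.75), the receptor that drives dendritic cell development, *Kmo* (0.72) and *Cd48* (0.68). *Itgae* followed *Clec9a* (0.56), a receptor of conventional dendritic cells, *Apol7c* (0.56) and *H2-M2* (0.55). Without the libraries with skin markers, r was 0.74 for *Klrd1* with *Flt3* and 0.68 for *Itgae* with *Clec9a*. Within single lines the lowest r was 0.55 and 0.36. The 160 colons share depth and tissue makeup, so these values are descriptions.

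Wild-type males, by their labels, were then compared between lines, since they were the controls that all 4 lines held. Among the 47 *Dok3* libraries, knockout and wild type, 5 had sex-linked genes against the labelled sex. Whether any of these affected this comparison was not tested. Of the 8 genes, 2 differed in an F test over the lines (18.5% of 19603 genes), *Itgae* (adjusted p = 0.011) and *Ccl5* (adjusted p = 0.0079), in edgeR's quasi-likelihood test. *Itgae* rose from the *Nckap1l* line (5.24 CPM at the lowest, 7.10 at the median, 10.3 at the highest, n = 7) through the *Dock2* line (5.06, 8.77 and 10.4, n = 12) and the *Gpsm3* line (5.68, 9.24 and 13.1, n = 20) to the *Dok3* line (6.11, 11.0 and 17, n = 21). The ranges overlapped, and no neighbouring lines in this order differed past the adjusted threshold. The *Dok3* controls stood 0.58 above the *Nckap1l* controls on the log2 scale (SE 0.14, adjusted p = 0.0092, 5.63% of genes). It was 0.57 (adjusted p = 0.030) without the libraries with skin markers and 0.49 (adjusted p = 0.016) with the neutrophil list as a covariate. Libraries with skin markers made up 2 of the 7 *Nckap1l*, 3 of the 12 *Dock2*, 1 of the 20 *Gpsm3* and 5 of the 21 *Dok3* wild-type males. The difference passed in 28 of 28 fits with 1 of these colons left out. In the other 5 pairs of lines none of the 8 genes passed. Of all genes, 0.0459% passed between *Dock2* and *Nckap1l* controls, 1.94% between *Gpsm3* and *Nckap1l*, 0.189% between *Gpsm3* and *Dock2*, 5.33% between *Dok3* and *Dock2* and 27.2% between *Dok3* and *Gpsm3*. Before adjustment between 1 and 3 of the 8 genes had p under 0.05 in each of these pairs, by edgeR's quasi-likelihood test, against between 5.75% and 39.7% of all genes. Other settings did call members in these pairs. DESeq2 called *Ccl5* between *Dock2* and *Nckap1l* controls and *Itgae* between *Dok3* and *Gpsm3* controls, and the fit without skin markers called *Ccl5* between *Gpsm3* and *Nckap1l* controls. The share of all genes that passed in those fits is not given here, so these calls cannot be set against it. With the neutrophil covariate *Itgae* and *Gzma* passed between *Dok3* and *Gpsm3* controls (27.2% of genes). Over all samples, with genotype and sex as covariates, 6 of 8 passed between *Dock2* and *Nckap1l* (35.3% of genes), 4 between *Gpsm3* and *Nckap1l* (26.3%) and 3 between *Dok3* and *Gpsm3* (35% of genes). In the same contrast of *Dok3* with *Nckap1l* controls, 0 of 12 other granule genes, 0 of 12 natural killer receptor genes and 0 of 17 T-cell receptor genes passed. *Xcr1*, a chemokine receptor of conventional dendritic cells, was 0.93 higher (adjusted p = 0.021) and *Ahr*, a receptor that intraepithelial lymphocytes need, 0.37 higher (adjusted p = 0.046), in edgeR's quasi-likelihood test. Each is a single gene from a longer list, of dendritic cell genes and of integrin and adhesion genes. How many other genes of those lists passed is not given here, so neither gene stands for its list.

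*Ccl5* in the *Nckap1l* wild-type males was 0.43, 0.61, 0.84, 0.89, 2.19, 8.19 and 27.7 CPM. The 5 lowest colons thus lay among those of the other lines, whose medians were 1.03 CPM (*Dock2*), 1.29 CPM (*Gpsm3*) and 0.86 CPM (*Dok3*), and the highest, replicate 10, lay above every one of the 160. *Dok3* controls were 1.74 lower than these on the log2 scale (SE 0.53, adjusted p = 0.036 in edgeR's quasi-likelihood test). Without replicate 10 the difference was -0.31 (adjusted p = 0.84), and the F test no longer passed (adjusted p = 0.41). Without replicate 11 it was -1.67 (adjusted p = 0.087). By limma-voom it was -0.87 (adjusted p = 0.37). The difference in *Ccl5* thus rested on 1 colon, whereas that in *Itgae* did not.

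**Figure D5:**
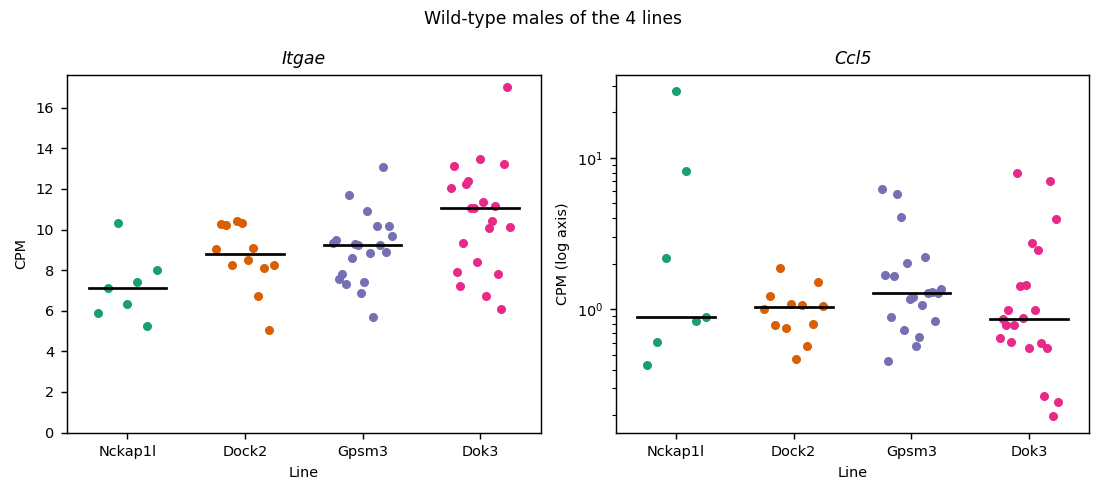
*Itgae* (left, CPM) and *Ccl5* (right, CPM on a log axis) in wild-type males of the 4 lines (points, colons; bars, medians). The *Itgae* medians climb from 7.10 CPM in the *Nckap1l* line to 11.0 CPM in the *Dok3* line, while in *Ccl5* the *Nckap1l* colon at 27.7 CPM stands above all others.

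Sex could be compared in the *Nckap1l* and *Dock2* lines. No member passed in the *Nckap1l* line (0 of 6, 0 before adjustment, against 0.178% of genes) or in the *Dock2* line (0 of 5, 1 before adjustment, against 9.75%), by edgeR's quasi-likelihood test. *Gzmb* in the *Dock2* line was 0.19 CPM at the lowest, 0.52 at the median and 1.92 at the highest in 20 females, and 0.07, 0.81 and 7.06 in 22 males. Females were lower by a log2 difference of -0.87 (SE 0.34, adjusted p = 0.098 in edgeR's quasi-likelihood test). The neutrophil genes were also lower in these females, with a median log2 difference of -1.42 over 11 genes tested, of which 0 passed adjustment and 6 had an unadjusted p under 0.05. With the mean of that list as a covariate the difference in *Gzmb* was -0.34 (adjusted p = 0.36 in edgeR's quasi-likelihood test). Without the 5 libraries of this line with skin markers it was -1.21 (adjusted p = 0.022), in a fit in which 18.3% of all genes passed against 1 of the 5 members.

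Within a line, the sample numbers in the labels fell into separate runs, 3 in the *Nckap1l* line and 2 each in the *Gpsm3* and *Dok3* lines. In the *Nckap1l* line *Klrd1* differed between runs (adjusted p = 0.041 in edgeR's quasi-likelihood test), 1 of 6 members, against 38% of genes. Its levels were 0.24 CPM at the lowest, 0.72 at the median and 3.69 at the highest in the first run of 14 colons, 0.06, 1.97 and 3.47 in the second of 9 and 0.20, 0.82 and 1.36 in the third of 8. The second run had the highest median, and the ranges overlapped. The first run also held 13 of its 14 libraries with skin markers, and the part of these in the difference was not tested. *Klrd1* passed in 18 of 31 fits with 1 colon left out. Between the runs of the *Gpsm3* and *Dok3* lines, 0 of 6 members (7.93% of genes) and 0 of 5 (0.125%) passed by edgeR's quasi-likelihood test, and 0 had an unadjusted p under 0.05.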

How the data were processed

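Total RNA of 2 cm of distal colon was depleted of ribosomal RNA, made into libraries with a strand-specific kit of KAPA and sequenced as 100-base reads, and per the study's methods the experiments were done 2 times independently. The authors deposited 1 file per mouse of raw counts per gene (39179 genes) without normalization, and the submitters' processing notes name STAR, Subread and mm10. The strand setting of the counting and the tool versions are not given in the sources used here. Samples were grouped by the line and genotype in the labels, and DSS treatment of single mice is not labelled. The lowest chi-square between libraries of a group was 3.74 per gene, so none was counted as a duplicate. Total counts had a median of 15989626 per library, and intervals and floors cover counting error alone.

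Counts were tested with edgeR 4.0.16 (quasi-likelihood, TMM, filterByExpr over line and genotype) per line with sex as a covariate where both sexes were present, under R 4.3.3, and p-values were adjusted over all genes tested by Benjamini-Hochberg at 0.05. The study used limma-voom, which was an alternative (limma 3.58.1), as were DESeq2 1.42.0, 2 surrogate variables (sva 3.50.0), no filter, other covariates and samples left out. The p-values measure the spread between these samples. Correlations used log2 CPM (prior count 2), group means removed, with 100000 permutations, two-sided, adjusted over all pairs of members and lines and over 544 pairs of gene, list and line (Python 3.11.15, scipy 1.17.1). The smallest p that these permutations can give is 1e-05. GENCODE gave symbols for 96.2% of genes, which held 99.7% of counts.

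The 8 genes and the gene lists were chosen with earlier results of these data known. Named were the 8 genes, the 4 knocked-out genes, the 3 genes most correlated with each member among genes averaging a log2 CPM of 1 or more, and from each list and comparison up to 3 genes past the threshold with the smallest p. Some genes that this rule names are not reported here. The regression on the neutrophil list, its alternatives, the analyses without libraries with skin markers and the leaving out of single colons were added after seeing the data. Scripts were tested on simulated counts.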

Additional observations from a re-analysis of the deposited data

Results flagged for a closer look

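Each gene was looked at in groups of 4 to 10 colons of 1 sex or 1 run within a line and genotype. In 7 of these 128 sets of gene and group, 1 colon lay apart from the others by Dixon's criterion at 95%. Chance alone gives this in about 1 of 20 independent sets. These sets were not independent, since the same colons recur across genes and across the groupings by sex and run. The 7 cases came from 5 colons. *Gzma* was 4.39 CPM in *Nckap1l* wild-type replicate 8, against 0.06 to 0.68 CPM in the other 7 wild-type females of that line and up to 0.52 CPM in the others of its run of sample numbers. *Nckap1l* wild-type replicate 10 stood apart among the 7 wild-type males in *Nkg7*, at 1.82 CPM against 0.39 to 0.75, and in *Prf1*, at 1.43 CPM against 0.13 to 0.41. It is the same colon that carried the difference in *Ccl5* between lines, and its neutrophil list mean was 6.95. *Gzma* was 3.37 CPM in *Dok3* wild-type replicate 18, against 0.08 to 0.62 CPM, with a neutrophil list mean of 8.11.

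*Gzmb* was 3.13 CPM in *Nckap1l* knockout replicate 14, against 0.72 to 1.10 CPM in the other 4 knockouts of its run, at a list mean of 0.97. *Itgae* was 16.7 CPM in *Gpsm3* knockout replicate 6, against 6.31 to 9.66 CPM in the other 9 knockouts of its run. Its neutrophil list mean was -0.41, against a median of 0.73 over the 160 colons.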

How the results depend on the processing

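Over 280 tests of a member between knockout and wild-type colons under all settings, 0 passed adjustment and 24 had an unadjusted p under 0.05. Of 191 alternative counts of members passed, 162 stayed within 1.5 times the reported count and 29 moved. Of 242 alternative knockout estimates of single members, 224 kept direction and side of the threshold and 18 reversed. No paired analysis was possible because replicate numbers follow accession order and mark no shared litter or day. The causes of the changes below were not tested.

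With the T-cell receptor list beside the neutrophil list, 2 members passed in the *Nckap1l* (28.2% of genes), 2 in the *Dock2* (51.9%) and 2 in the *Gpsm3* line (36.8%). Between runs of the *Nckap1l* line 0 members passed by limma-voom (37.5% of genes), 3 of 6 with the neutrophil list as a covariate (36.3% of genes) and between 0 and 2 with 1 colon left out. Between sexes of the *Dock2* line 1 passed without libraries with skin markers (18.3% of genes). Over wild-type males, the F test and the contrast of *Dok3* with *Nckap1l* each called 1 member by limma-voom and 1 with the neutrophil covariate, 6 and 5 over all samples (58.2% and 25.5% of genes), and between 1 and 2 with 1 colon left out (59 such fits in all). By limma-voom 1033 of all genes passed in that contrast, against 1104 in the main fit. For the other fits named here without a share of all genes, that share is not given, so their calls cannot be set against it.

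Reversed log2 differences in the *Nckap1l* knockouts were, for *Gzmb*, 0.20 by limma-voom, 0.16 with the neutrophil list, 0.36 with surrogate variables, 0.31 with the run as a covariate, 1.29 in run 1 and 0.0098 in run 3. For *Ccl5* they were 0.89, 0.91, 1.11, 0.44, 1.67 and 1.37 in the same order, and 0.031 without sex. *Cd160* was 0.11 in run 1 and *Itgae* 0.27 in run 2. *Nkg7* in the *Gpsm3* line was -0.19 in run 1, and *Klrd1* and *Itgae* in the *Dok3* line were 0.47 and 0.062 in run 2. Slopes that reversed with the T-cell list were *Cd160* -0.082, *Nkg7* -0.0033 and *Itgae* -0.12 (*Nckap1l*), *Cd160* -0.0068 (*Dock2*), and *Cd160* -0.017, *Klrd1* -0.026, *Nkg7* -0.15 and *Ccl5* -0.011 (*Gpsm3*), and *Itgae* was -0.0016 in the *Nckap1l* line with the run as a covariate. *Dok3* minus *Nckap1l* wild-type males reversed for *Nkg7* by limma-voom (-0.0080) and over all samples (-0.64), and for *Prf1* by limma-voom (-0.079), without skin markers (-0.32) and over all samples (-0.64).

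Counts of all genes passed ran from 0 to 93 between genotypes in the *Nckap1l* line, 0 to 94 in the *Dock2* line (6 reported), 0 to 32 in the *Gpsm3* line (1) and 0 to 17 in the *Dok3* line (0), from 1 to 390 for the difference between lines (137), from 9 to 108 between sexes of the *Nckap1l* line (32), up to 3202 in the *Dock2* line (1721), up to 2503 between runs of the *Gpsm3* line (1393), down to 5069 for the slope in the *Nckap1l* line (8706), and up to 11554 in the F test over wild-type males (3619) and 5053 for *Dok3* minus *Nckap1l* (1104). Depth limits *Gzma*, *Prf1* and *Nkg7*, whose median counts were 4, 5 and 8.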
